A study of Homo sapiens with 6 samples.

Results

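The 9 genes MYC, HIF1A, YY1, ABL1, VEGFA, BCL2, KIT, TERT and SRC were examined for DNA G-quadruplex (G4) peaks, out of 19817 protein-coding genes placed on the autosomes and X. They are cancer-related genes taken from a list of names, most with promoters reported to fold into G4s, and every peak inside such a gene or within 1 kb of either end was collected. The peaks come from BG4 chromatin immunoprecipitation and sequencing (ChIP-seq) in U2OS, an established human osteosarcoma cell line, where BG4 is an antibody that recognises G4 structures. Cells were left untreated (Ctrl) or were given 1,6-hexanediol (HD), an alcohol that dissolves many condensates, at a dose and for a time that the labels do not state, and the comparison asks whether G4 sites differ between the conditions. The 6 libraries are 2 ChIP and 1 input of each condition, and the files used hold a single peak list for each. There is thus no replicate error on any value below, and nothing was tested between Ctrl and HD.

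A G4 forms when 4 runs of guanines on a single strand stack on each other, and the opposite strand then carries matching runs of cytosines. Such runs are common just upstream of transcript starts, and the promoters of MYC, KIT, VEGFA, BCL2, HIF1A and TERT are classic systems in which folding was studied in vitro. The 9 genes have different roles: MYC, HIF1A and YY1 encode transcription factors, ABL1, SRC and KIT encode tyrosine kinases, VEGFA encodes a secreted growth factor of blood vessels, BCL2 encodes an inhibitor of apoptosis, and TERT encodes the catalytic subunit of telomerase. U2OS cells are known to maintain telomeres without telomerase.

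The HIF1A promoter carried the peak with the most fragments, and its sequence shows a G4 motif directly under the summit. The motif searched was 4 runs of at least 3 G separated by loops of 1 to 7 bases of any kind (GGG, N loop, GGG, N loop, GGG, N loop, GGG), on either strand, so that a motif on the opposite strand reads as runs of CCC. RefSeq promoter windows on GRCh38.p14 hold 300 bases, 250 before and 50 from the transcript start onwards, read on the gene's strand. The HIF1A window at chr14:61695263-61695562, plus strand, lay wholly within the HD peak and is printed because the summit falls in its motif, whose runs are in capitals.
HIF1A: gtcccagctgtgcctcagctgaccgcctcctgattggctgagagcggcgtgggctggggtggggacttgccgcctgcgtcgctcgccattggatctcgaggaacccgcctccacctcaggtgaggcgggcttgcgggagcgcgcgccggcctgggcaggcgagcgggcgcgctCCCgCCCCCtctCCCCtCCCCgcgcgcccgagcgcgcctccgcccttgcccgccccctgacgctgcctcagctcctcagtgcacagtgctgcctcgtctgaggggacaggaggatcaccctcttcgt
The motif has runs of C, so the G-rich strand is the template strand of HIF1A. It spans bases 77 to 57 before the start (chr14:61695436-61695456), and the HD summit lay 60 bp before the start, inside it.

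The summit of the HD peak at YY1 lay between the starts of YY1 and of YY1-DT, a noncoding transcript that runs in the opposite direction from a start 523 bp away, and the peak reached across the start of YY1-DT. The window of YY1-DT (chr14:100238572-100238871, minus strand) is printed because this peak touches it, again with the motif's runs in capitals.
YY1-DT: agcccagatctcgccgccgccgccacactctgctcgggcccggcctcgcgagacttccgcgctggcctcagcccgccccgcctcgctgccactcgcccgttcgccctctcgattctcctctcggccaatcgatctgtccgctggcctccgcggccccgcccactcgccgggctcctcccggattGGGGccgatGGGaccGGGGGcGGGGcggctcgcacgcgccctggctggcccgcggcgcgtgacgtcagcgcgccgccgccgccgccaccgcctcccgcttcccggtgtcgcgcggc
This motif (chr14:100238663-100238687) lay inside the HD peak, 85 bp from its summit. YY1's own window began 52 bp beyond the peak, and its motif (chr14:100239090-100239111) was 318 bp from the summit.

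Windows were found for 6 of the 9 genes, 7 windows in all, since HIF1A has another start 2199 bp downstream of the first. MYC, VEGFA and SRC had no window. The main motif was present at 5 of these 6 genes (HIF1A, YY1, ABL1, KIT and TERT), in 5 of the 7 windows. Among all 22131 windows of protein-coding genes 30.5% held it. Most of the genes were listed because promoter G4s had been reported for them, so this comparison is no test. The motifs without a called peak over them are shown for comparison with HIF1A, each read on the gene's strand with runs in capitals.
KIT, 122 to 103 bases before the start: GGGcGGGcgcgaGGGaGGGG
KIT, 72 to 51 bases before the start: GGGaGGGcgctGGGaggaGGGG
TERT, 88 to 69 bases before the start: CCCCgCCCCgtCCCgaCCCC
TERT, 67 to 45 bases before the start: CCCgggtCCCCggCCCagCCCCC
TERT, 38 to 21 bases before the start: CCCtCCCagCCCCtCCCC
YY1, 54 to 33 bases before the start: CCCgCCCCttCCCCCgccgCCC
ABL1, 109 to 78 bases before an internal start: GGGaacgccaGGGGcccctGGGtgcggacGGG
ABL1, 42 to 20 bases before the same internal start: GGGGcGGGGGcGGGcctggcGGG
HIF1A and YY1 each held 1 motif, KIT and ABL1 held 2, and TERT held 3 in a row with runs of C. The ABL1 window belongs to a start 122 kb inside the gene, not to the end where its peak lay. BCL2 held no match with these loops, and held 1 or more when loops of up to 12 bases were allowed, as did 45.5% of protein-coding windows.

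**Figure D1:**
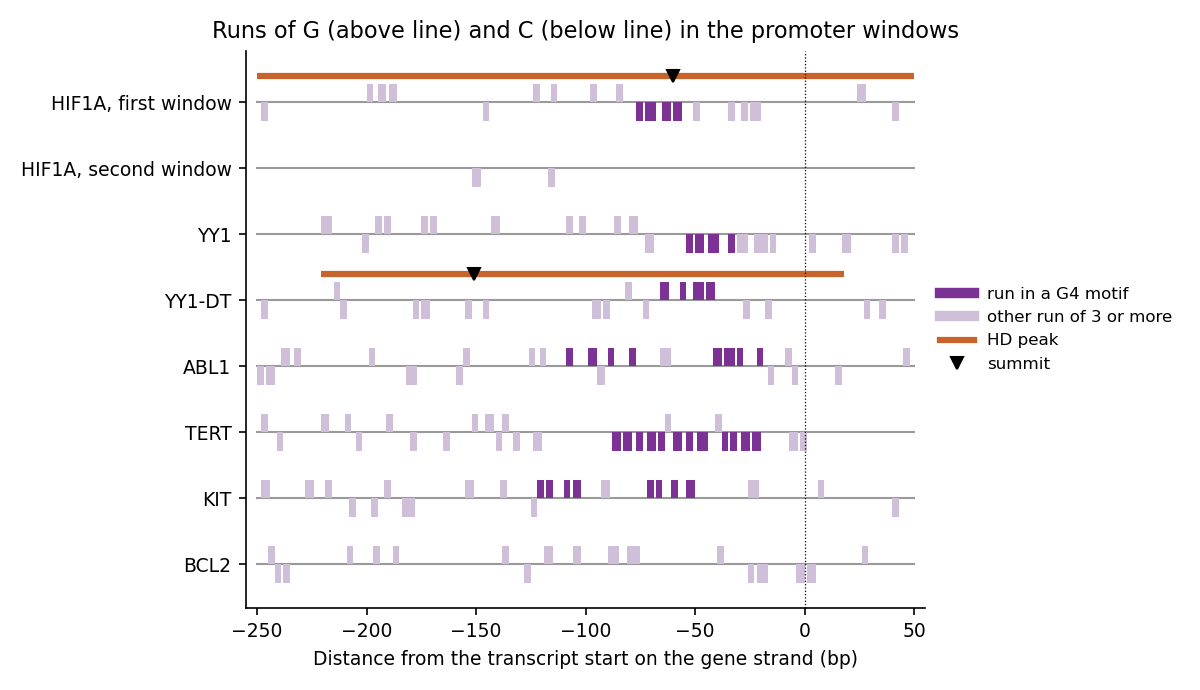
Runs of at least 3 G (above each line) or 3 C (below it) in the 300-base promoter windows, by distance in bp from the transcript start on the gene's strand; dark runs belong to a G4 motif, and the orange bar and triangle mark an HD peak and its summit. The summit at HIF1A sits on a dark run 60 bp before the start, while the 3 motifs of TERT and the 2 of KIT have no peak above them.

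The windows found for 6 of the 9 genes were rich in G and C, except the downstream window of HIF1A. The GC content was 73.0% in the first HIF1A window, 82.7% in YY1, 78.3% in ABL1, 77.3% in TERT, 74.3% in KIT and 70.7% in BCL2. The median over windows of protein-coding genes was 62.3%. The downstream HIF1A window had 31.7%, and only 0.687% of protein-coding windows had less. TERT had 30 runs of at least 3 G or C, more than 98.7% of protein-coding windows, and the first HIF1A window had 19.

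Motifs were more common than peaks in these windows, as they were over all protein-coding windows, of which 30.5% held the main motif. The 7 windows leave out MYC, which had none, and the end of ABL1 where its peak lay. A Ctrl peak touched none of the 7 windows, beside 8.73% of all protein-coding windows, and an HD peak touched only the first HIF1A window, beside 6.29%. Over all protein-coding windows, a Ctrl peak touched 11.2% of those with a motif and 7.62% of those without, and for HD these shares were 8.04% and 5.52%. Summits inside a motif were found at other promoters too. Of 396 HD summits in protein-coding windows holding a motif, 56 (14.1%) lay within it, where motifs made up a mean of 10.4% of the bases of those windows.

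Peaks lay at 5 of the 9 genes, and each of these genes was in 1 list only. The Ctrl list marked ABL1 and TERT (2 of 9), beside 13.3% of protein-coding genes by the same rule, and 7.02% were marked in Ctrl only. The HD list marked MYC, HIF1A and YY1 (3 of 9), beside 9.54% of protein-coding genes, and 3.31% were marked in HD only. None of the 9 was marked in both lists, beside 6.24% of protein-coding genes. VEGFA, BCL2, KIT and SRC were marked in neither, as were 83.4% of protein-coding genes. The rule favours long genes, since a peak anywhere inside counts: in Ctrl 8.22% of protein-coding genes under 10 kb, 14.2% of those of 10 to 50 kb and 16.5% of those of 50 kb and over had a peak, and in HD 6.49%, 10.2% and 11.4%. Counting only peaks within 1 kb of a gene end left ABL1 in Ctrl, beside 10.9% of protein-coding genes, and the same 3 genes in HD, beside 8.11%, with 5.2% marked in both lists. MYC is 7.52 kb long, shorter than all but 22.2% of protein-coding genes, while ABL1 (175 kb) and BCL2 (197 kb) are longer than 91.5% and 92.8% of them.

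**Figure D2:**
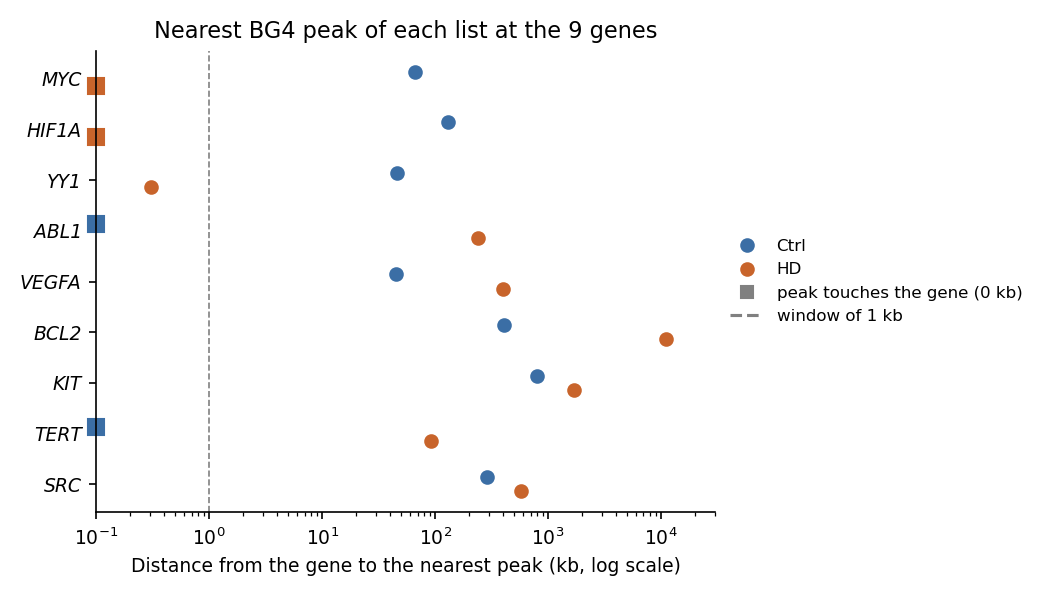
Distance in kb (log scale) from each of the 9 genes to the nearest peak of the Ctrl and the HD list, with squares for a peak that touches the gene and a dashed line at 1 kb. Each of the 5 marked genes has a peak of 1 list within 1 kb, and the nearest peak of the other list is at least 45.9 kb away.

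The window of 1 kb decided none of these calls narrowly. The YY1 peak ended 302 bp below the gene, and the closest peaks left out were an HD peak at SNAPC1, 13.9 kb above HIF1A, and a Ctrl peak at SLC6A18, 14.7 kb below TERT.

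Each peak is described by the number of ChIP fragments over its summit, recovered from the caller's fold and p-value, with an exact 95% Poisson interval that covers counting error only. The expectation is the caller's estimate from input, and in this caller a whole number is the number of input fragments over the site itself. The fold and −log10 q are the authors' own values per peak and rank peaks only within a list. Recovered ChIP depth was 19570 fragments per Mb for Ctrl and 27560 for HD, a ratio of 1.41, so equal fragment numbers are not equal signal. In the HD list every one of the 2269 peaks is named after replicate 1, so it may rest on 1 ChIP library or on both.

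Among the transcription factors, HIF1A, the oxygen-regulated subunit of hypoxia-inducible factor, had the most fragments. Its HD peak (gene ID 3091; chr14:61695239-61695590) held 69 fragments (interval 53.7 to 87.3) over a site with 12 input fragments, and 84.9% of HD peaks had fewer. Its fold of 3.87 was below the HD median of 4.02, and its −log10 q of 11.3 ranked 324 of 2269. The peak covered the first 78 bp of HIF1A and lay wholly within HIF1A-AS1, an antisense noncoding gene that starts 370 bp above the summit. ChIP-seq does not tell which strand carried the G4. The nearest Ctrl peak was 130 kb away, at LINC01303.

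YY1, a zinc finger factor that joins enhancers to promoters and has itself been reported to bind G4s, had a smaller HD peak. It held 29 fragments (19.4 to 41.6) at chr14:100238603-100238842 (gene ID 7528), with an expectation of 4.20, close to the genome-wide value of 3.94. Its fold of 4.18 was above that of HIF1A although only 13.2% of HD peaks had fewer fragments. The summit lay 372 bp before the start of YY1 and 151 bp before that of YY1-DT, so the peak cannot be given to either gene alone. The nearest Ctrl peak was 45.4 kb from the HD peak and within 1 kb of no gene in the table.

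MYC, a growth-promoting transcription factor, had the lowest fold of the 3 listed genes with an HD peak. Its HD peak (gene ID 4609; 127736130 to 127736414 on chromosome 8) held 39 fragments (27.7 to 53.3) over 10 input fragments, with a fold of 2.62. Only 5.07% of HD peaks had a lower −log10 q than its 2.11. The summit lay inside the gene, 729 bp from its lower end. Both lists marked PVT1, the noncoding gene next to MYC. A Ctrl peak of 39 fragments and an HD peak of 51 overlapped each other 111 kb above MYC, within PVT1.

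ABL1, a tyrosine kinase known from the BCR fusion of leukaemia, had the higher fold of the 2 listed genes with a Ctrl peak. Its Ctrl peak (gene ID 25; chr9:130712621-130713063) held 27 fragments (17.8 to 39.3) over 4 input fragments. The fold of 5.20 exceeded that of 81.3% of Ctrl peaks, and the width of 443 bp that of 89.4%. The peak ran across the lower end of the gene, which is its start on the plus strand, with the summit 319 bp before it. Another entry annotated as protein-coding, LOC128092248, starts inside ABL1 902 bp above the summit and does not overlap the peak. The nearest HD peak was 412 kb from the ABL1 peak, at NUP214.

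TERT was marked far from its promoter. Its Ctrl peak (gene ID 7015; chr5:1272668-1273621) lay inside the gene, 22.3 kb from the start and 19.6 kb from the other end; exon positions were not used here. At 954 bp it was wider than 98.7% of Ctrl peaks. It held 35 fragments (24.4 to 48.7) over 10 input fragments, with a fold of 3.04 that only 18.3% of Ctrl peaks fell below. No peak of either list lay within 1 kb of either gene end, although the promoter holds 3 motifs. The nearest HD peak was 111 kb from the Ctrl peak.

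Set against input on the same scale, the ChIP signal was 6.26-fold at ABL1, 4.93-fold at YY1, 4.11-fold at HIF1A, 3.24-fold at TERT and 2.79-fold at MYC. With the counting error of ChIP and input together, the exact 95% intervals were 2.18 to 24.6 for ABL1, 2.21 to 8.34 for HIF1A, 1.57 to 7.34 for TERT and 1.37 to 6.26 for MYC. For YY1, whose expectation was not a whole number, the interval was 3.30 to 7.08 with input taken as known. These intervals overlap one another, which is not a test, and the order of the 5 peaks by enrichment was not tested.

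**Figure D3:**
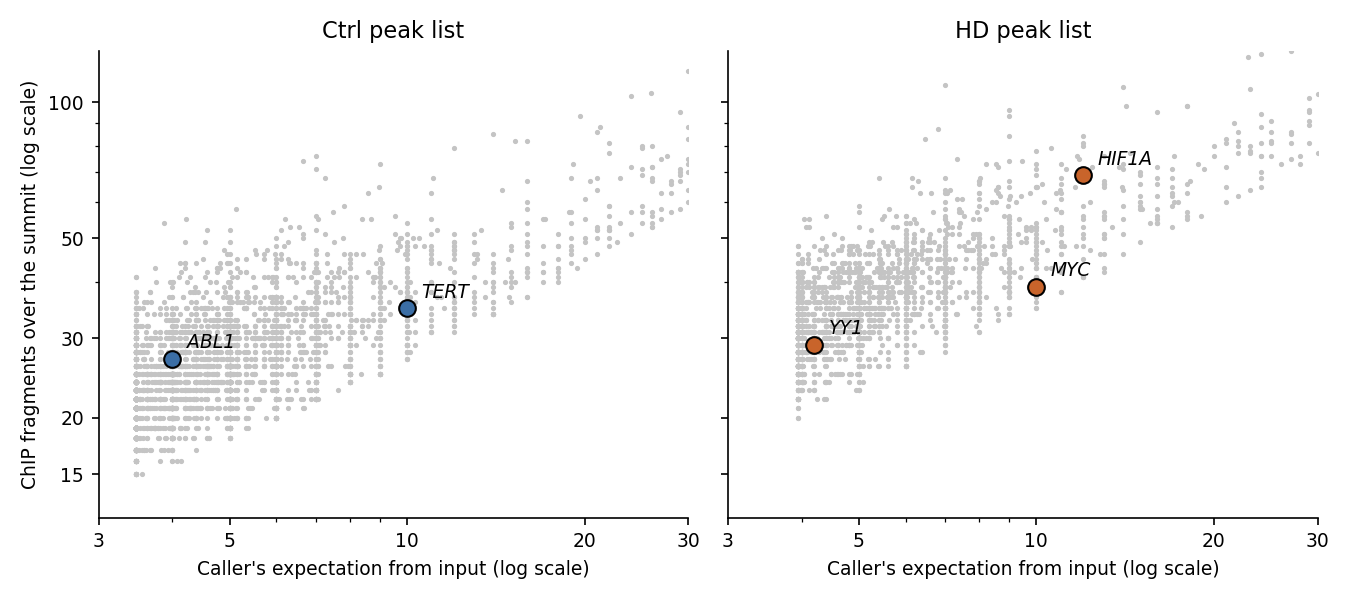
ChIP fragments over the summit against the caller's expectation from input, both on log scales, for the peaks of each list (grey) with the 5 peaks at the listed genes in colour; 354 Ctrl and 257 HD peaks lie outside the axes. HIF1A stands at 69 fragments above an expectation of 12, MYC sits near the lower edge of the HD list at 39 above 10, and ABL1 and YY1 lie at low expectations.

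The lists hold fragment numbers only where a peak was called, so each of the 5 numbers was selected for being high in its own list, and the values below describe call limits and do not support a difference between Ctrl and HD. Each called peak was therefore scaled to the depth of the other list and set beside the fewest fragments that could give a call there, taking the input at the site to follow the genome-wide ratio of 1.14 between lists. HIF1A would have held 49.0 fragments (38.1 to 62.0) at Ctrl depth, where 29 were needed. ABL1 would have held 38.0 (25.1 to 55.3) at HD depth, where 21 were needed. For these 2 genes the whole interval lies above the call limit under that assumption. A second planned scaling used the ratio of genome-wide expectations in place of ChIP depth. That ratio follows input coverage, so scaling ChIP fragments by it does not keep the signal equal. By it ABL1 would have held 30.7 (20.2 to 44.7), and the interval then includes 21. The input over these sites in the other condition and the spread between libraries were not measured here.

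For the other 3 peaks the call limit falls inside the interval. MYC would have held 27.7 fragments (19.7 to 37.9) at Ctrl depth, where 25 were needed. YY1 would have held 20.6 (13.8 to 29.6), where 16 were needed. TERT would have held 49.3 (34.3 to 68.5) at HD depth, where 38 were needed. By genome-wide expectations, which follow input coverage and not ChIP depth, YY1 would have held 25.5 (17.1 to 36.6), with the whole interval above 16. At MYC and TERT the limit stayed inside the interval. The other list holds no fragment number at these sites, so a difference between Ctrl and HD was not tested at any marked gene.

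**Figure D4:**
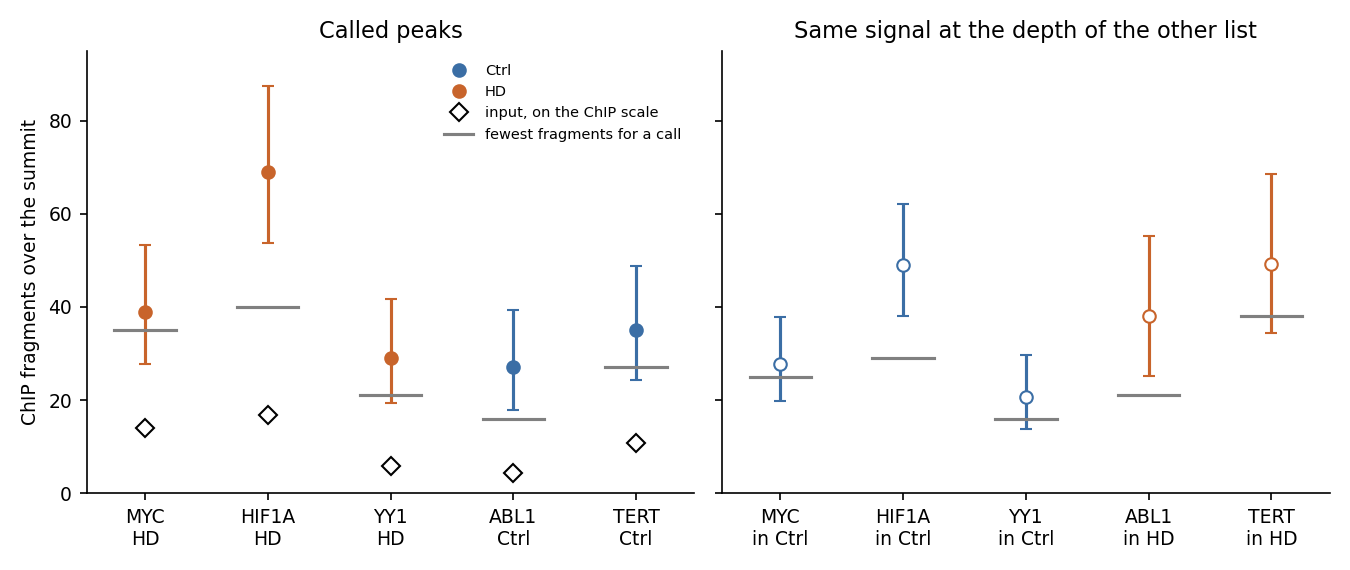
Left, ChIP fragments over the summit of the 5 called peaks with exact 95% Poisson intervals, input on the same scale (diamonds) and the fewest fragments for a call in that list (grey lines). Right, the same signal scaled by ChIP depth to the other list with the call limit there: the intervals of HIF1A (38.1 to 62.0) and ABL1 (25.1 to 55.3) lie above it and those of MYC, YY1 and TERT include it.

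The 4 genes without a peak differed in how far their surroundings were from any G4 call. VEGFA had a Ctrl peak 44.8 kb away and its nearest HD peak 400 kb away, at ZNF318, which both lists marked. SRC, the founding member of the SRC kinase family, had Ctrl and HD peaks 288 kb and 571 kb away, at CTNNBL1 and DSN1. KIT, the receptor of stem cell factor, had them 806 kb and 1695 kb away, the former at CLOCK. BCL2 had a Ctrl peak 408 kb away at PHLPP1, and its nearest HD peak, 11176 kb away, was the farthest HD peak for any of the 9 genes. At a site with the genome-wide expectation a call needed 15 fragments in Ctrl and 20 in HD, so a weaker signal at these 4 genes would not have been called.

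Peak overlap between the lists was 0 of 5 for peaks at the listed genes, beside 38.5% of Ctrl peaks and 59.7% of HD peaks overall. Peaks of similar size at other genes, also absent from the other list, show what such values look like. By fragments and fold together, the peak most like that of MYC was at LPIN2 (39 fragments, fold 2.70), followed by NBEAL1 (37 fragments, fold 2.74). HIF1A was closest to DEPTOR (55 fragments, fold 4.03) and to its neighbour SNAPC1 (52 fragments, fold 3.53). YY1 was closest to RSL1D1 (29 fragments, fold 4.14) and ARHGAP35 (30 fragments, fold 4.15). TERT was closest to RPS29 (34 fragments, fold 2.96) and DLGAP1 (35 fragments, fold 3.29) among peaks inside genes. The ABL1 values of 27 fragments and a fold of 5.20 were shared exactly by 5 other gene-end peaks, among them TADA1 and NUCB2. Likeness was the smallest distance in log2 fragments and log2 fold over the 1 list concerned.

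Genes related to the 9 carried peaks in both conditions, and several were marked in both lists. Over 9 lists of relatives, 102 genes outside the 9, the Ctrl list marked 23 (22.5%, beside 13.3% of protein-coding genes) and the HD list 13 (12.7%, beside 9.54%). Of these, 16 were in the Ctrl list only, 6 in the HD list only and 7 in both. These genes were not matched to others on length, expression or GC content, and the part of those in the counts was not tested. Fragment numbers below are not scaled by depth.

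Other genes with reported promoter G4s were marked at 5 of 18 in Ctrl and 2 in HD. STAT3, a cytokine-activated transcription factor, was marked at a gene end in both lists. It had 36 fragments in Ctrl and 51 in HD, where ChIP depth was 1.41 times that of Ctrl. Input on the ChIP scale was 5.39 in Ctrl and 12.6 in HD, so the ratios to input were 6.68 and 4.05. No interval was set on these ratios, and a difference between the lists was not tested. HSP90AA1 (26 fragments), CCND1 (21) and RET (22) had Ctrl peaks inside the gene and no HD peak.

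Genes for proteins that bind promoter G4s or the MYC element were marked at 6 of 12 in Ctrl and 3 in HD. NCL, which encodes nucleolin, a nucleolar protein that binds the MYC G4, had 20 fragments in Ctrl and 30 in HD. DDX5, an RNA helicase that unfolds it, had 32 and 50. NME1 (25 fragments), CNBP (23) and TOP1 (21) were in the Ctrl list only, and PARP1 (31) in the HD list only.

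In the MYC network, 4 of 11 other genes had a Ctrl peak and 1 an HD peak. MAX, the obligate partner of MYC, had 35 fragments in Ctrl and no HD peak. MXD1, which competes with MYC for MAX, had 38 in Ctrl and 43 in HD. MXD4 (22 fragments) and MXI1 (19 fragments) were in the Ctrl list only.

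Among the partners of the other transcription factors, the hypoxia and VEGF list was marked at 1 of 13 in Ctrl and 2 in HD. ARNT, the dimer partner of HIF1A, had 24 HD fragments and no Ctrl peak. EGLN2, a prolyl hydroxylase that marks HIF1A for destruction, had 28 in Ctrl and 32 in HD. For YY1, 3 of 9 relatives had a Ctrl peak and 1 an HD peak. CTCF, which organises chromatin loops, had 25 and 41 fragments, and RUVBL2 (26) and INO80 (25), subunits of the INO80 remodeller, were in the Ctrl list only.

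The lists of kinase, receptor, survival and telomere relatives each had 0 to 2 genes marked per condition. In the SRC and ABL kinase list, 1 of 10 other genes was marked in Ctrl, YES1 with 31 fragments, and 0 in HD. None of 5 receptors and ligands related to KIT was marked in either list. In the BCL2 family 2 of 15 were marked in each list and none in both. BAX (21 fragments) and BOK (20) were in the Ctrl list, and BAD (40) and BAK1 (33), all promoters of apoptosis, in the HD list. Among telomerase and shelterin genes, TERF2 (20 Ctrl fragments), the telomere loop protein, NHP2 (35 HD fragments) and ACD (32 HD fragments) were marked, 1 of 12 in Ctrl and 2 in HD.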

How the data were processed

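BG4 ChIP-seq of U2OS cells was compared between untreated and hexanediol-treated cultures. Per the labels' protocols, cells were fixed with formaldehyde at 1% for 10 min, and the labels state neither dose nor duration for hexanediol. Tools named in the submitters' processing notes are MACS2 2.2.7.1, Bowtie2 2.5.0, FastQC 0.11.9 and SAMtools, with the build hg38. The authors deposited 1 MACS2 list per condition, tied by the labels to both ChIP libraries. Each peak has a fold (a ratio) over local background, −log10 p and −log10 q, deposited by the authors, and a deposited score that was not used. The lowest deposited −log10 q was 1.31 in Ctrl and 1.30 in HD, that is a q-value of 0.05.

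Fragments were recovered by solving the caller's fold, (pileup + 1) / (expectation + 1), and Poisson p for a whole number of fragments times a scale (0.927 Ctrl, 0.715 HD). The deposited −log10 p was matched for 3491 of 3507 Ctrl and 2257 of 2269 HD peaks (within 0.01, or a slightly wider margin for very large values), with 1 solution for each of the 5 peaks reported. The step was tested on simulated data. The genome-wide expectation was 3.46 in Ctrl and 3.94 in HD, and the caller's fragment length 191 bp and 200 bp.

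Genes came from a RefSeq table of GRCh38.p14, the assembly of hg38, and starts, strands and sequences from its promoter windows. Genes on scaffolds were left out. The 9 genes, the lists of relatives and the settings were chosen with earlier results of these data known. Named relatives are those with a peak, at most 6 per list by −log10 q, and the values of 1 of them are not reported here. No test was made, since members have no replicate values. Python 3.11.15, scipy 1.17.1 and pandas 2.3.3 were used.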

Additional observations from a re-analysis of the deposited data

How the results depend on the processing

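The HD count of 3 genes and the count of 0 in both lists stood under windows of 500 bp and 5 kb and when the summit had to lie in the window. At −log10 q of at least 3, MYC dropped out of the HD count, which became 2. The Ctrl count fell from 2 to 1, with TERT lost, when only gene ends were counted, and also fell to 1 when 2172 peaks were taken from each list. None of the 5 peaks gained a partner in the other list with summits within 200 bp or a gap of up to 1 kb. The HD to Ctrl ratio of 1.41 for scaling fragments was 1.14 by genome-wide expectations and 1.47 by mean ChIP coverage, the last chosen after seeing the data. The ratio of 1.14 follows input coverage, so scaling ChIP fragments by it does not keep the signal equal. By genome-wide expectations the interval of ABL1 (20.2 to 44.7) came to include the 21 fragments needed and that of YY1 (17.1 to 36.6) rose above the 16 needed, while HIF1A (47.2 to 76.8) stayed above its limit and MYC (24.4 to 46.9) and TERT (27.7 to 55.3) still included theirs. By coverage, none of the 5 changed side. Promoters with a motif rose from 5 to 6 genes with loops of up to 12 bases or runs of at least 2 G. No paired analysis was possible because each condition has 1 peak list, and leaving out a replicate was not run for the same reason. Depth limits what a missing call can show.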

Other observations

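The caller's expectation from input around HIF1A, MYC and TERT had medians above those of all peaks in both lists. The 8 Ctrl peaks within 1 Mb of HIF1A had expectations of 6.69 to 14.0 (median 7.91), and the 2 other HD peaks there had 9.17 and 9.81. The 6 Ctrl peaks within 1 Mb of MYC had expectations of 5.53 to 8.20 (median 7.0), and the 2 other HD peaks 7.81 and 9.0. The medians over all peaks were 5.0 in Ctrl and 5.52 in HD. Around TERT the 6 other Ctrl peaks had expectations of 3.46 to 13 (median 5.57) and the 5 HD peaks 4.0 to 17.0 (median 9.0). Around ABL1 the 3 other Ctrl peaks had 3.46 to 5.0 and the 2 HD peaks 4.20 and 4.80. The part of input in the calls at HIF1A, MYC and TERT was not tested.

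TERT had 6 other Ctrl peaks and 5 HD peaks within 1 Mb, where HIF1A had 8 Ctrl peaks and 2 other HD peaks. The Ctrl list marked SLC6A18, a transporter gene, 14.7 kb below TERT with 20 fragments and CLPTM1L 38.4 kb above it with 32 fragments, and neither peak overlapped an HD peak. In HD, the nearest peaks lay 91.0 kb and 91.5 kb below TERT, and the latter, of 34 fragments, overlapped a Ctrl peak.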
